A study of Mus musculus with 6 samples.

Results

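The purinergic receptors and ectonucleotidases described here are 10 genes found by symbol among the 32285 genes of the count matrices. They are the P2Y receptors P2ry12, P2ry13 and P2ry6, the related receptor Gpr34, the ATP-gated channels P2rx4 and P2rx7, the adenosine receptors Adora3 and Adora2a, and the ectonucleotidases Entpd1 (CD39) and Nt5e (CD73). All 10 were measured in each of the 6 single-cell libraries. The study isolated CNS myeloid cells from the whole brain of 3 male C57BL/6J mice at postnatal day 89 by cold Dounce homogenization, sorted them for CD45 and CD11b, and asked whether the kit version of the 10x Genomics capture changes what is detected. Mice 1 and 3 were processed without inhibitors (DNC-NONE), and mouse 2 with a cocktail of transcriptional and translational inhibitors, actinomycin D, triptolide and anisomycin (DNC-INHIB). Cells of every mouse were captured with both the V3.0 and V3.1 kits, which gives 3 libraries per kit. Because the cocktail was used in 1 mouse, its effect and that mouse cannot be told apart.

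Purinergic signalling starts with nucleotides that leave damaged or active cells. ATP opens the P2X channels, ADP acts on P2ry12 and P2ry13, and UDP acts on P2ry6, and microglia use these receptors to extend processes towards an injury, to move and to engulf. Entpd1 removes phosphates from ATP and ADP to leave AMP, Nt5e turns AMP into adenosine, and adenosine acts on the adenosine receptors. Gpr34 resembles the P2Y receptors in sequence but is a receptor for lysophosphatidylserine.

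Values are UMIs (counted molecules) per 1000000 UMIs of the same cells, called CPM. Of 29412 barcodes, 19725 passed the filters, 70.0% to 76.8% per library except 21.5% in the V3.0 capture of mouse 3. Cells were assigned to a type by marker UMIs that include no member, which gave 18889 microglia, 53 border macrophages, 157 monocytes, 306 neutrophils and 35 lymphocytes, while 285 cells stayed unassigned. Some markers that the assignment did not use were clearly highest in the type they stand for, and others were not. Sall1, a microglial transcription factor, was at 426 CPM in microglia and at 2.09 to 28.3 CPM in border macrophages, monocytes and neutrophils. Stab1 was at 883 CPM in border macrophages, S100a4 at 1585 CPM in monocytes and S100a8 at 177423 CPM in neutrophils. Ly86, listed for monocytes, was at 443 CPM in them but at 2199 CPM in microglia. Ms4a6c, listed for border macrophages, was at 933 CPM in them and at 1182 CPM in monocytes. Csf3r, listed for neutrophils, was at 236 CPM in them and at 177 CPM in microglia. Any pair of libraries shared 1 to 14 barcodes, at most 0.295% of the smaller library. The counting interval given with a pooled value is a 95% Poisson interval (for shares of cells, exact binomial) and covers counting error only.

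P2ry12 and P2ry13, the ADP receptors, were far higher in microglia than in any other type. P2ry12 was at 3412, 3219 and 3183 CPM in the microglia of mice 1, 2 and 3, and at 220, 130 and 242 CPM in their border macrophages. Neutrophils held 230, 156 and 199 CPM, and monocytes 0, 20.8 and 27.9 CPM. No mouse's other cells came near its microglia, and border macrophages and neutrophils overlapped in CPM. Against microglia, the log2 fold change of P2ry12 was −3.89 in border macrophages (standard error 0.22, adjusted p = 2.37e-32), −7.26 in monocytes (standard error 0.26, adjusted p = 8.22e-54) and −2.65 in neutrophils (standard error 0.16, adjusted p = 2.71e-31), all by the quasi-likelihood test of edgeR, with p adjusted by Benjamini and Hochberg's method over 7692 genes. The fit scales neutrophils differently from CPM, and its neutrophil value rests on 32 of 306 cells that held 91.1% of the P2ry12 UMIs, without which it was −5.88. P2ry13 was at 571, 416 and 502 CPM in microglia, 126, 107 and 22.0 CPM in border macrophages and 51.1, 20.9 and 41.3 CPM in neutrophils. The lowest border macrophage value is 1 UMI in 10 cells. P2ry13 fell by 2.03 on the log2 scale in border macrophages (standard error 0.28, adjusted p = 8.95e-10) and by 2.29 in neutrophils (standard error 0.19, adjusted p = 1.03e-21). Monocytes held 1 UMI of P2ry13 in all, which is 0.212% of the microglial level (0.00538% to 1.18%).

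P2ry12 (ENSMUSG00000036353, GRCm38 chromosome 3, 59216272 to 59262871, minus strand) and P2ry13 (ENSMUSG00000036362, chromosome 3, 59207892 to 59210882, minus strand) are neighbours, 5389 bases apart. Both lie inside Med12l, which runs on the opposite strand, and the sources used here do not give whether the counting used the strand. RefSeq promoters (GRCm38.p6) were at hand for 7 members, in 9 entries, and none for P2ry6, Adora2a and Gpr34. Shown are the 250 bases before the start of the neighbouring pair, of Adora3, which like them was called lower in border macrophages, monocytes and neutrophils, and of P2rx4, which was not lower in border macrophages. The start is that of RefSeq, which for Adora3 lies inside the longer GENCODE span given with its values. Capitals mark the letters of 4 motifs searched on both strands, GAGGAA (the core bound by PU.1, a factor of myeloid cells), TGTGGT (RUNX), TGACTCA (AP-1) and TTGCGCAA (C/EBP).

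P2ry12 (chr3:59262986-59263235, minus strand): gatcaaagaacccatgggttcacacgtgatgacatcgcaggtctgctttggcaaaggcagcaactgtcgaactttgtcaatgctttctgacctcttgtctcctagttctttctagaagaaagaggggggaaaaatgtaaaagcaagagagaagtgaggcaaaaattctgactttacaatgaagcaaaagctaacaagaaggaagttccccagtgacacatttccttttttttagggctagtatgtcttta
P2ry13 (chr3:59210883-59211132, minus strand): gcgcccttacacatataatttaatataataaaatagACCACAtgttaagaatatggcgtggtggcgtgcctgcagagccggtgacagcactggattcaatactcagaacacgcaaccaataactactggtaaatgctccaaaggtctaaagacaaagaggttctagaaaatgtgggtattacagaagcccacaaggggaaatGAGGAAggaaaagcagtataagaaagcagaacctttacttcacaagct
Adora3 (chr3:105904171-105904420, plus strand): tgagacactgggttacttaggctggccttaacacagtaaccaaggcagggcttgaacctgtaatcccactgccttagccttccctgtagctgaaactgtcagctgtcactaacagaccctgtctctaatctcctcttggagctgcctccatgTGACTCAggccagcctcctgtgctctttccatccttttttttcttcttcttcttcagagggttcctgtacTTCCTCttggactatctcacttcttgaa
P2rx4 (chr5:122707294-122707543, plus strand): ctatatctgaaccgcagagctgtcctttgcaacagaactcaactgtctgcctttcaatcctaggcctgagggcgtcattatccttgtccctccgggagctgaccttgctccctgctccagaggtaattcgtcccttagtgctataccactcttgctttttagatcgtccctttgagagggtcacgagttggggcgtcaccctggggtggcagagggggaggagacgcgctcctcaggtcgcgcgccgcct

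P2ry13 holds a PU.1 core from −48 to −43 and a RUNX match on the other strand from −214 to −209, counted from the start. Adora3 holds a PU.1 core on the other strand from −28 to −23 and an AP-1 match from −98 to −92. The windows of P2ry12 and P2rx4 hold none of the 4 motifs, and no marked matches overlap. The PU.1 core is in 3 of the 9 member entries and in 23.3% of all 32851 promoter windows of the same length. Of these windows, 4614 hold TGTGGT, 1466 (4.46%) TGACTCA and 54 (0.164%) TTGCGCAA.

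P2ry6, the UDP receptor tied to engulfment, did not separate microglia from border macrophages. It was at 410, 409 and 383 CPM in microglia and at 377, 358 and 506 CPM in border macrophages, where the values of the 2 types overlap. The log2 fold change was 0.27 (standard error 0.20, adjusted p = 0.444 by edgeR). It turned to −0.13 with 10 times the marker UMIs of every other type in place of 3 times, to −0.02 with library size alone and to −0.01 without the low-count filter. Monocytes held 109, 51.0 and 39.0 CPM and neutrophils 32.3, 17.7 and 13.8 CPM. P2ry6 fell by 2.31 in monocytes (standard error 0.20, adjusted p = 3.28e-20) and by 2.76 in neutrophils (standard error 0.22, adjusted p = 2.46e-23). The neutrophil value lies below the monocyte value in every mouse. Gpr34 was at 2856, 2732 and 2721 CPM in microglia, and next came border macrophages at 346, 381 and 440 CPM. Neutrophils followed at 215, 117 and 161 CPM, and monocytes at 4.02, 28.3 and 50.1 CPM. These 4 levels of Gpr34 kept their order in CPM in each mouse. Its log2 fold change against microglia was −2.55 in border macrophages (standard error 0.20, adjusted p = 2.98e-22), −6.37 in monocytes (standard error 0.24, adjusted p = 3.44e-50) and −2.64 in neutrophils (standard error 0.17, adjusted p = 2.86e-30). Gpr34 (ENSMUSG00000040229, chromosome X, 13632089 to 13640858) lies inside Cask on the opposite strand, and P2ry6 (ENSMUSG00000048779) is on chromosome 7, 100937630 to 100974649.

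P2rx4 and P2rx7 are the ATP-gated channels, the first tied to pain signalling and the second to inflammasome activation. P2rx4 was at 110, 116 and 114 CPM in microglia and higher in the border macrophages of every mouse, at 157, 214 and 154 CPM. The log2 fold change was 1.00 (standard error 0.27, adjusted p = 0.00321 by edgeR), and P2rx4 was the only member called higher than in microglia. The call rests on 45 UMIs in 53 cells. It was lost without mouse 2, where the log2 fold change was 0.58 (adjusted p = 0.461), and also when 4 markers were required (0.66, adjusted p = 0.160), with 10 times the marker UMIs of every other type in place of 3 times (0.86, adjusted p = 0.155) and when genes of low count were kept in (0.72, adjusted p = 0.0947). P2rx4 was lower than in microglia in monocytes, at 52.3, 47.2 and 61.3 CPM (log2 fold change −0.82, standard error 0.23, adjusted p = 0.00137), and in neutrophils, at 8.07, 8.02 and 7.86 CPM (−2.39, standard error 0.31, adjusted p = 2.92e-11). P2rx7 was at 116, 119 and 118 CPM in microglia and at 315, 130 and 44.0 CPM in border macrophages, a spread that runs from above to below the microglia. Its log2 fold change of 0.76 there (standard error 0.29, adjusted p = 0.0644) did not pass the threshold. It fell to 0.14 without mouse 1 (adjusted p = 0.915), whose border macrophages hold 20 UMIs of P2rx7. It passed without mouse 3 (0.99, adjusted p = 0.0192), with 2 UMIs, and with cells of at least 500 genes (0.85, adjusted p = 0.0152). Monocytes held 24.1, 26.4 and 33.4 CPM of P2rx7 and neutrophils 16.1, 9.63 and 5.90 CPM, both called lower than microglia (−1.79, standard error 0.28, adjusted p = 2.41e-08, and −1.98, standard error 0.30, adjusted p = 4.12e-09). The 2 genes are neighbours on chromosome 5 and the plus strand, P2rx7 (ENSMUSG00000029468) from 122643911 to 122691432 and P2rx4 (ENSMUSG00000029470) from 122707544 to 122729738.

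Of the adenosine receptors, Adora3 was found in microglia and Adora2a was nearly absent from them. Adora3 was at 169, 191 and 196 CPM in microglia, and none of the 53 border macrophages held a UMI of it. Against the level that 3 UMIs over all border macrophages would give, Adora3 was at least 14.8-fold lower there than in microglia (adjusted p = 5.70e-11 by edgeR). The other macrophage-like type thus stood apart from microglia in this gene, while it was not told apart from them in P2ry6. Monocytes held 5 UMIs of Adora3 in 157 cells, and neutrophils 10.8, 6.42 and 7.86 CPM, with log2 fold changes of −4.83 (standard error 0.38, adjusted p = 1.03e-22) and −3.00 (standard error 0.29, adjusted p = 2.68e-17). Adora3 (ENSMUSG00000000562, chromosome 3, 105870858 to 105908926) shares its strand and most of its span with Tmigd3, to which 98 UMIs were assigned in microglia, so that UMIs of the pair may be split between them. Adora2a (ENSMUSG00000020178, chromosome 10, 75316877 to 75334784), the receptor through which adenosine restrains many immune cells, had 1 UMI in 18889 microglia. Monocytes held 3, 6 and 3 UMIs of it, 12.1, 11.3 and 16.7 CPM, in 6.37% of cells (3.10% to 11.4%). None was seen in 53 border macrophages or in 306 neutrophils, which allows a share of up to 6.72% and 1.20% of cells with a UMI (exact binomial). The limit for border macrophages is not below the monocyte share. Adora2a did not pass the filter on low counts. Without that filter it was called higher in monocytes than in microglia (adjusted p = 7.71e-10 by edgeR), as were 10.9% of the 19141 genes then tested. No member was called higher in border macrophages in that fit, where 2.93% of genes were.

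Entpd1 and Nt5e, which act one after the other on extracellular nucleotides, were highest in different cells, Entpd1 in microglia and Nt5e in neutrophils. Entpd1 was at 543, 560 and 557 CPM in microglia, 157, 252 and 132 CPM in border macrophages, 102, 80.2 and 86.5 CPM in neutrophils and 28.2, 30.2 and 33.4 CPM in monocytes. The order of these 4 types in CPM was the same in every mouse, though the scaling of the fit put border macrophages and neutrophils level. Entpd1 fell against microglia by 1.18 in border macrophages (standard error 0.23, adjusted p = 1.24e-05 by edgeR), by 3.87 in monocytes (standard error 0.23, adjusted p = 4.00e-32) and by 1.18 in neutrophils (standard error 0.16, adjusted p = 9.25e-11). Nt5e was nearly absent from microglia, with 2, 5 and 2 UMIs in the 3 mice, and no UMI was seen in border macrophages or monocytes. Neutrophils held 29, 17 and 6 UMIs, which is 39.0, 27.3 and 11.8 CPM. Every mouse's neutrophils were above its microglia, which lay between 0.0893 and 0.190 CPM. A UMI of Nt5e was seen in 14.7% of neutrophils (10.9% to 19.2%) at a median of 5688 UMIs a cell and in 0.0476% of microglia at a median of 3513. With all cells thinned to 2000 UMIs, the shares were 5.56% (3.27% to 8.75%) and 0.0220%. Nt5e was also under the filter on low counts. With it lifted, Nt5e was called higher in neutrophils, as were 13.2% of 19141 genes, with a log2 difference of 8.57 ± 0.76 (standard error) and an adjusted p of 3.71e-28 (edgeR). Entpd1 (ENSMUSG00000048120) spans 40612366 to 40741602 of chromosome 19, and Nt5e (ENSMUSG00000032420) 88327197 to 88372092 of chromosome 9.

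**Figure D1:**
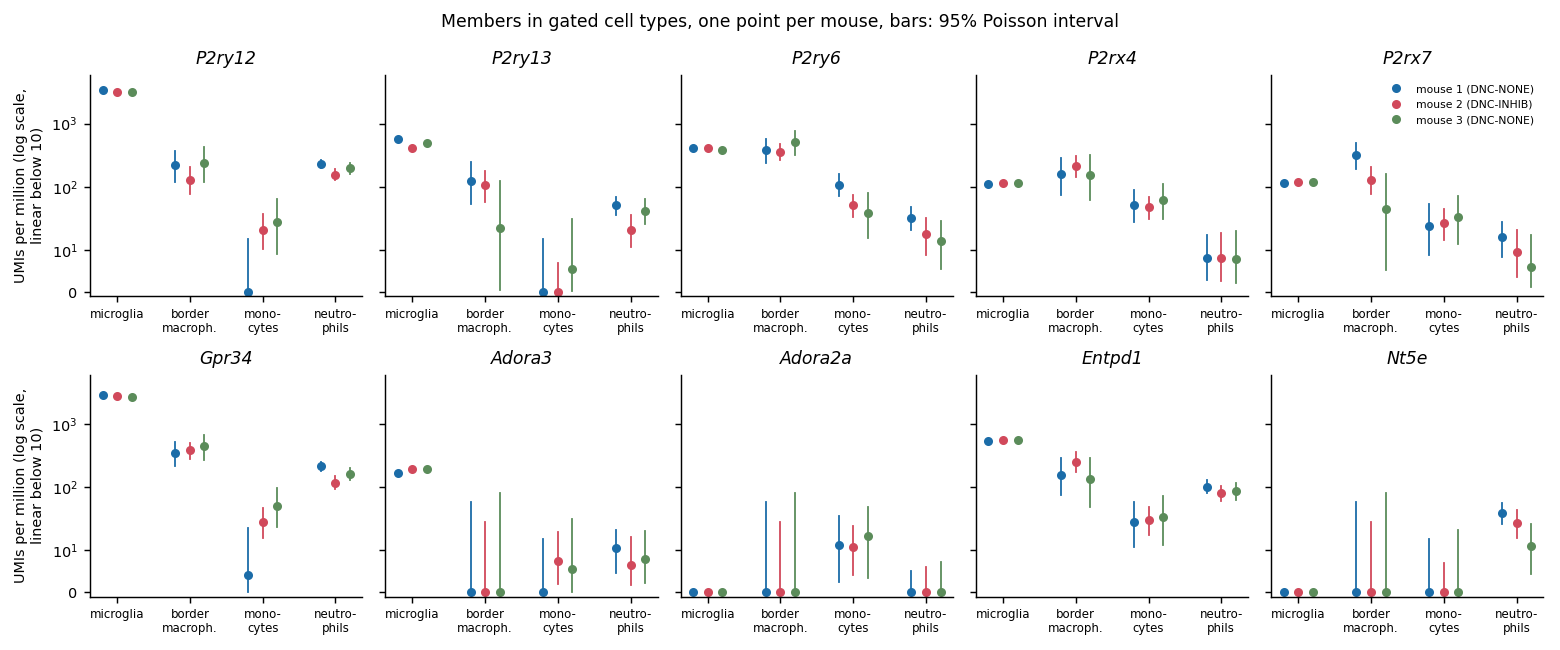
CPM (vertical axis, logarithmic above 10) of each of the 10 genes in 4 cell types, 1 point per mouse with its 95% Poisson interval. P2ry12, Gpr34, P2ry13 and Adora3 stand highest in microglia, and P2ry6 is level between microglia and border macrophages. Nt5e is seen above its microglial level in neutrophils and Adora2a in monocytes. Where no UMI was counted, as for both genes in border macrophages, a level above the microglial one is not excluded.

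In counts, 5 of the 8 members that passed the low-count filter were called lower in border macrophages than in microglia, where 6.8% of all 7692 genes were, and 1 was called higher, against 8.7% of all genes. In monocytes all 8 were called lower and none higher (26.9% and 26.6% of all genes), and in neutrophils likewise (33.2% and 30.1%). The median log2 fold change of the 8 members was −1.61, −4.35 and −2.51 in border macrophages, monocytes and neutrophils, beside −0.14, −0.09 and −0.15 over all genes. The 2 members outside the filter are Adora2a and Nt5e, with 1 and 9 UMIs in all microglia, so the 8 are not a picture of all 10. The filter can be met through any type. Adora3, at 10.8 CPM or less in the other 3 types of each mouse, passed it through microglia. Its lower calls were thus close to given by the filter. A gene was called at an adjusted p under 0.05 and a log2 fold change beyond 0.58. These fold changes use TMM scaling, which is meant to correct for a few genes that take much of a neutrophil's UMIs. It takes most genes as unchanged, whereas 4862 of 7692 genes were called in neutrophils, and its fit to them was not tested. With library size alone the median of all genes moved by −1.46 in neutrophils, −0.35 in monocytes and −0.30 in border macrophages, and the genes called higher went from 2312 of 4862 to 914 of 6542 in neutrophils, from 2044 of 4116 to 1509 of 4552 in monocytes and from 669 of 1192 to 524 of 1551 in border macrophages. The 8, 8 and 6 members stayed called in the same directions.

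Microglial transcripts were also counted in cells of the other types, and their level was gauged with microglial genes outside the marker lists. In neutrophils Sall1 and Crybb1 together stood at 5.62% of their microglial level (4.49% to 6.95%), and C1qa, C1qb and C1qc at 5.43% (5.22% to 5.64%). P2ry12 at 6.01% (5.42% to 6.66%), Gpr34 at 6.06% (5.41% to 6.77%), P2ry6 at 5.57% (4.02% to 7.53%) and Adora3 at 4.61% (2.63% to 7.48%) had the same share within counting error. These 4 values are not told apart from the gauges, and whether they include expression by neutrophils was not tested. P2rx4 at 7.05% (3.95% to 11.6%) overlapped both gauges, while P2ry13 at 7.81% (6.11% to 9.83%) and P2rx7 at 9.50% (5.88% to 14.5%) overlapped that of Sall1 and Crybb1 but lay above that of the C1q genes. Entpd1 was at 16.4%, with 170 UMIs, above every gauge. The microglial UMIs were not spread evenly. Only 32 of 306 neutrophils held more than 10 UMIs of the C1q genes or of Sall1 and Crybb1, and these held 91.1% of the P2ry12 UMIs, 89.8% of those of Gpr34 and all 21 of P2rx7, but 38.2% of the Entpd1 UMIs and 11.5% of those of Nt5e. In the other 274 neutrophils P2ry12 stood at 0.599% of its microglial level (0.413% to 0.842%), beside 0.689% for Tmem119 (0.386% to 1.14%), a microglial marker that was among those used to assign cells to types. Entpd1 was at 11.3% (9.22% to 13.6%), at 62.4 CPM with a UMI in 27.4% of cells, and Nt5e at 27.3 CPM in 14.2% of cells. P2ry13 was at 2.06% (1.20% to 3.29%), on 17 UMIs, and P2rx4 at 4.72% (2.16% to 8.95%), on 9 UMIs, both above Tmem119. Without the 32 cells, and 1 monocyte of the same kind, all 8 members stayed called lower in neutrophils, with log2 fold changes of −1.65 for Entpd1, −2.90 for P2rx4, −4.13 for P2ry13, −5.68 for Gpr34, −5.77 for Adora3 and −6.31 for P2ry6, and no P2rx7 UMI left. The members' median went from −2.51 to −5.72. How the microglial transcripts came to be in these cells was not tested.

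In border macrophages the gauge of Sall1 and Crybb1 was 2.58% (0.838% to 6.02%), on 5 UMIs. Microglial markers used in the assignment stood higher there, Tmem119 at 7.73% (4.95% to 11.5%), Olfml3 at 12.4% (9.14% to 16.3%) and Siglech at 16.7% (12.7% to 21.5%). P2ry12 at 5.35% of the microglial level (3.85% to 7.23%) overlapped the gauge of Sall1 and Crybb1 and also Tmem119. It is not told apart from them, and its source was not tested. Gpr34 at 13.8% (11.2% to 17.0%) and P2ry13 at 19.5% (12.4% to 29.2%) lay above the gauge of Sall1 and Crybb1 but overlapped Siglech, and their source was not tested either. Entpd1 at 36.9% (27.3% to 48.7%), P2ry6 at 97.4% (78.7% to 119%), P2rx7 at 138% (98.0% to 188%) and P2rx4 at 165% (121% to 221%) lay above all of these. In monocytes the C1q genes stood at 0.761% (0.654% to 0.879%), and P2ry12 at 0.511% and Gpr34 at 0.942% (0.610% to 1.39%) were near them. Sall1 and Crybb1 together stood at 1.29% there (0.621% to 2.38%), on 10 UMIs. Adora3 at 2.82% (0.915% to 6.58%) overlapped this gauge but lay above that of the C1q genes. P2rx4 at 45.1% (33.4% to 59.6%), P2rx7 at 23.0% (15.1% to 33.8%), P2ry6 at 15.9% (12.1% to 20.4%) and Entpd1 at 5.47% (3.66% to 7.86%) were above both gauges.

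**Figure D2:**
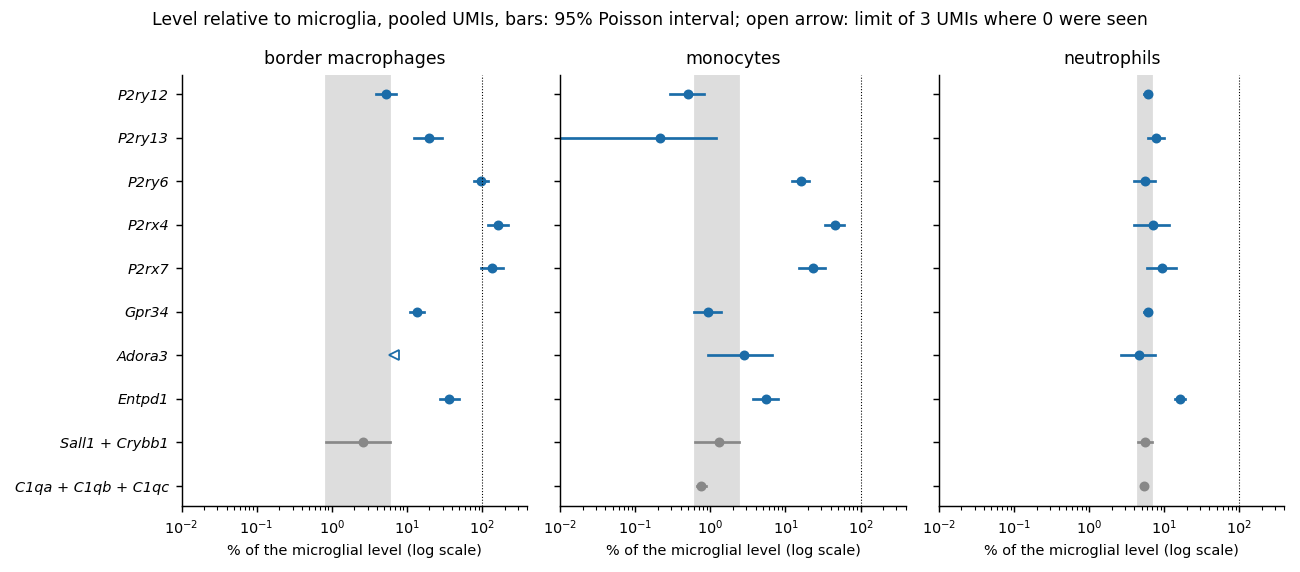
Level of 8 members in border macrophages, monocytes and neutrophils as a percent of the microglial level (horizontal axis, logarithmic), from pooled UMIs with 95% Poisson intervals. Grey points and the grey band are the microglial gauge genes, the dotted line is the microglial level and the open triangle the limit for Adora3, and in neutrophils Entpd1 at 16.4% lies clear of the band that holds P2ry12 and Gpr34.

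Within microglia, detection was compared after thinning each cell to 2000 UMIs, which left out 738 of 18889 cells. Averaged over 6 libraries, a UMI of P2ry12 was seen in 99.0% ± 0.278 (SD, n = 6) of microglia and one of Gpr34 in 98.4% ± 0.614. The shares were 64.5% ± 4.81 for Entpd1, 60.2% ± 6.06 for P2ry13, 53.7% ± 4.15 for P2ry6 and 30.1% ± 3.27 for Adora3. P2rx7 was seen in 20.7% ± 1.55 and P2rx4 in 19.9% ± 2.41. Without thinning the same shares were 99.8%, 99.6%, 81.5%, 77.4%, 72.2%, 45.7%, 33.7% and 31.5%. P2ry12 and Gpr34 were thus found in nearly every microglial cell at this depth, and for the other members a cell without a UMI does not show a cell without the transcript. Nt5e was seen in 4 of 18151 thinned microglia and Adora2a in 1.

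**Figure D3:**
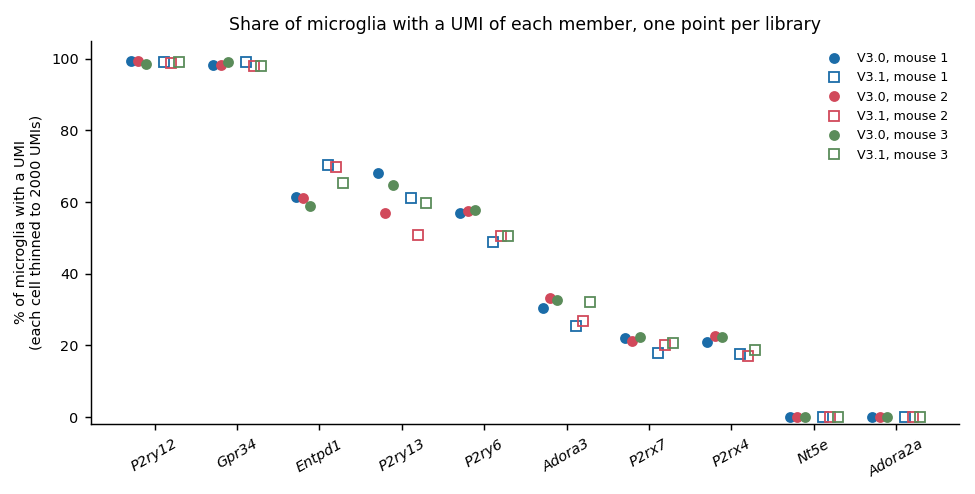
Percent of microglia with at least 1 UMI of each gene after thinning to 2000 UMIs (vertical axis), 1 point per library, filled circles for V3.0 and open squares for V3.1. P2ry12 and Gpr34 lie between 97.8% and 99.4% in all 6 libraries, and P2ry13 spreads from 50.7% to 68.1%.

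Counts per thinned microglial cell were set against sampling alone, for which the variance equals the mean. The ratio of variance to mean was 1.73 for P2ry12 and 1.85 for Gpr34, and 1.03 to 1.20 for the other 6 members found in microglia. These 6 had means of 0.232 (P2rx4) to 1.11 UMIs (Entpd1), against 6.52 for P2ry12. At low means the ratio stays near 1 even where cells differ, so it does not rank the members by their spread between cells. P2ry12 ranged from 2 to 13 UMIs between the 5th and 95th percentile of cells, with a median of 6, and Gpr34 from 1 to 11, with a median of 5. Over the microglia of a library, the Pearson correlation of P2ry12 with Gpr34 had a median of 0.145 (0.0863 to 0.174 over 6 libraries) and that of P2ry12 with P2ry13 a median of 0.121 (0.101 to 0.165). The other 26 of 28 pairs had medians within 0.1 of 0. The cells of a library share depth after thinning and the same capture, and at counts this sparse the weak values are given as a description.

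The kit comparison asks whether V3.0 and V3.1 count the members alike. No member was called between the kits in microglia at the fold threshold, where 3.05% of 12019 genes were (edgeR, 3 libraries per kit). At the adjusted p alone, 3 of the 8 tested members passed, as did 13.5% of all genes. Entpd1 was higher with V3.1 in every mouse, at 474, 505 and 492 CPM with V3.0 and 635, 623 and 570 CPM with V3.1 (log2 fold change 0.33, standard error 0.07, adjusted p = 0.00818). P2ry6 was lower with V3.1 in every mouse, at 448, 446 and 456 CPM against 358, 366 and 369 CPM (−0.29, standard error 0.06, adjusted p = 0.00979), and so was P2rx4, at 118, 130 and 132 CPM against 98.8, 99.9 and 110 CPM (−0.28, standard error 0.07, adjusted p = 0.0274). For these 3 genes the kits do not overlap. For P2rx7 they do not overlap either, at 126, 124 and 125 CPM against 104, 113 and 117 CPM, though its adjusted p was 0.163. Such separation was seen in 4 of 8 members and in 33.2% of all genes tested. P2ry13 was lower with V3.1 in each mouse but overlapped between kits, at 612, 455 and 532 CPM against 516, 370 and 496 CPM (−0.19, standard error 0.12, adjusted p = 0.298). The log2 difference between kits was −0.02 for P2ry12 (standard error 0.07, adjusted p = 0.870), 0.04 for Gpr34 (standard error 0.07, adjusted p = 0.758) and −0.17 for Adora3 (standard error 0.10, adjusted p = 0.258), with mice moving both ways.

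Each mouse was captured with both kits, so the libraries are paired. With the mouse as a replicate block the adjusted p alone passed for 6 members, P2ry6, P2rx4, P2rx7, P2ry13, Adora3 and Entpd1, and for 29.3% of all genes, with log2 fold changes between −0.29 and 0.33 and none beyond 0.58. Leaving out mouse 1 or mouse 2 took the adjusted p of all 3 genes above 0.05, with Entpd1 at 0.27 (adjusted p = 0.102) and 0.33 (adjusted p = 0.0805), P2ry6 at −0.28 (adjusted p = 0.0831) and −0.30 (adjusted p = 0.0951), and P2rx4 at −0.30 (adjusted p = 0.0906) and −0.23 (adjusted p = 0.232). Without the V3.0 library of mouse 3, P2rx4 had an adjusted p of 0.0920.

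**Figure D4:**
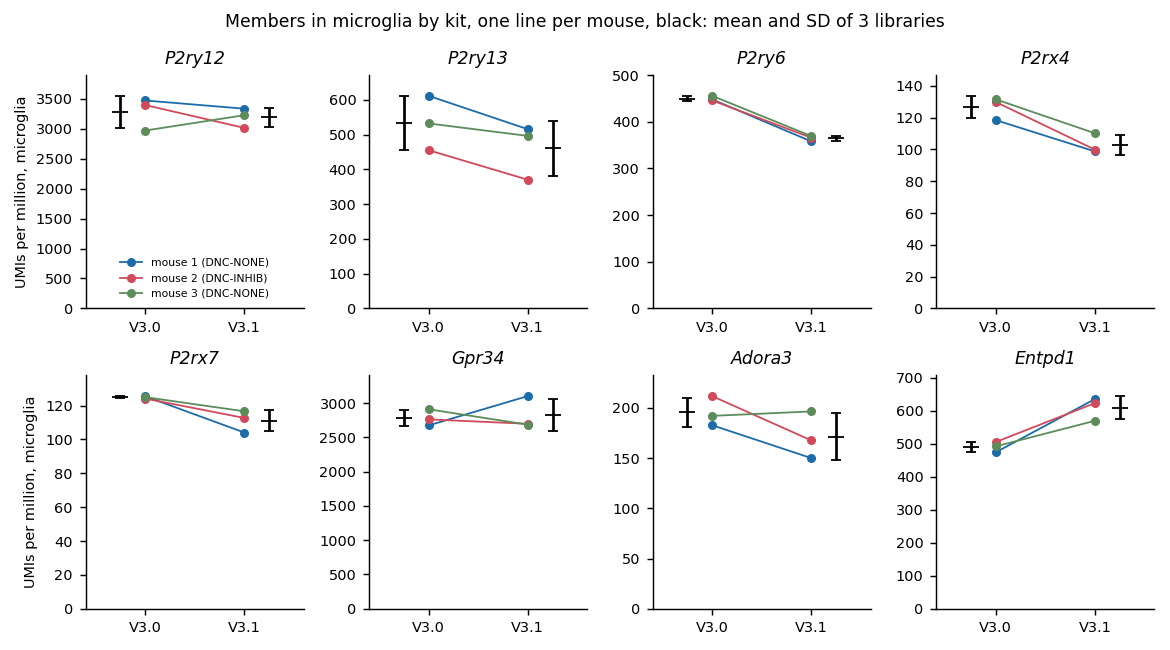
CPM in microglia (vertical axis, from 0) of 8 members by kit, 1 line per mouse and the mean ± SD of 3 libraries in black. Entpd1 rises and P2ry6, P2rx4, P2rx7 and P2ry13 fall in each of the 3 mice, while the lines of P2ry12, Gpr34 and Adora3 cross.

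The inhibitors were compared with mouse 2 alone against mice 1 and 3, both kits together, with the lone mouse assumed to vary like the other 2. No member was called, and 0.895% of 13184 genes were (edgeR). P2ry13 was lowest in the inhibitor mouse, at 416 CPM against 571 and 502 CPM, a log2 fold change of −0.35 ± 0.10 (standard error) at an adjusted p of 0.0408, past the adjusted p but not the fold threshold. It was lowest in mouse 2 within each kit as well, at 455 CPM against 612 and 532 CPM with V3.0 and at 370 CPM against 516 and 496 CPM with V3.1. Of the mice only the other 2 give the spread behind that p, and under all 9 alternatives it was above 0.05, from 0.0696 to 0.975. At the adjusted p alone 1.41% of all genes passed. For the other 7 members the log2 fold changes lay between −0.02 and 0.08 with standard errors of 0.10, and the lowest adjusted p was 0.959. For P2ry12, at 3219 CPM against 3412 and 3183 CPM, and P2ry6, at 409 CPM against 410 and 383 CPM, the inhibitor mouse lay between the other mice.

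Some microglia carried genes of known microglial states, and the members were read in them by mouse, as a description on cells picked after these data had been seen. A first set of 132 cells (0.699% of microglia) held UMIs of at least 2 of Cst7, Lpl, Itgax, Axl and Spp1, genes of disease-associated microglia. In them P2ry12 was lower than in the other microglia of mice 1, 2 and 3 by 0.94, 1.27 and 0.70 on the log2 scale, at 1790, 1347 and 1967 CPM. P2ry13 was lower by 0.59, 1.12 and 0.50, Adora3 by 0.47, 0.95 and 0.85, Entpd1 by 0.54, 0.51 and 0.74, Gpr34 by 0.33, 0.82 and 0.41 and P2rx7 by 0.99, 0.20 and 0.57, the last on 14, 28 and 11 UMIs. P2rx4 was the one member higher in every mouse, by 0.59, 0.59 and 0.28, on 39, 47 and 19 UMIs. P2ry6 differed by −0.13, −0.04 and 0.14, with no common direction. These cells were deeper than the rest, at medians of 4776, 4350 and 3872 UMIs against 3571, 3471 and 3483. The border macrophage markers stood at 16.9, 59.0 and 7.26 CPM in them and at 17.5, 16.4 and 20.1 CPM in the rest, and their part in the differences was not tested.

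The 66 microglia with UMIs of both Ccl3 and Ccl4, chemokine genes, had less P2ry12 in every mouse, by 0.34, 0.48 and 0.93, less Adora3, by 0.48, 0.98 and 0.87, and less P2rx7, by 0.94, 0.44 and 0.95, the last on 7, 9 and 4 UMIs. P2ry13 was lower as well, by 0.76, 0.78 and 0.18, and P2ry6 by 0.01, 0.11 and 0.19. Gpr34 differed by −0.16, 0.04 and 0.03 and Entpd1 by 0.10, −0.15 and −0.19, with no common direction. P2rx4 was again higher in each mouse, by 0.43, 0.13 and 0.81, on 17, 13 and 13 UMIs. These cells too were deeper, at medians of 4137, 3669 and 4347 UMIs against 3573, 3476 and 3483, and held border macrophage markers at 8.68, 77.8 and 30.6 CPM against 17.5, 16.6 and 20.0 CPM, whose part in the differences was not tested. The 219 microglia with at least 4 of 9 interferon-response genes had less P2ry12, by 0.29, 0.51 and 0.57, and less Gpr34, by 0.32, 0.51 and 0.48. P2ry6, by 0.44, 0.20 and 0.16, Entpd1, by 0.28, 0.08 and 0.19, Adora3, by 0.28, 0.11 and 0.07, and P2ry13, by 0.01, 0.20 and 0.47, were lower in each mouse too. Their P2rx4 differed by 0.25, −0.20 and 0.26 and their P2rx7 by −0.33, −0.23 and 0.25, without a common direction.

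**Figure D5:**
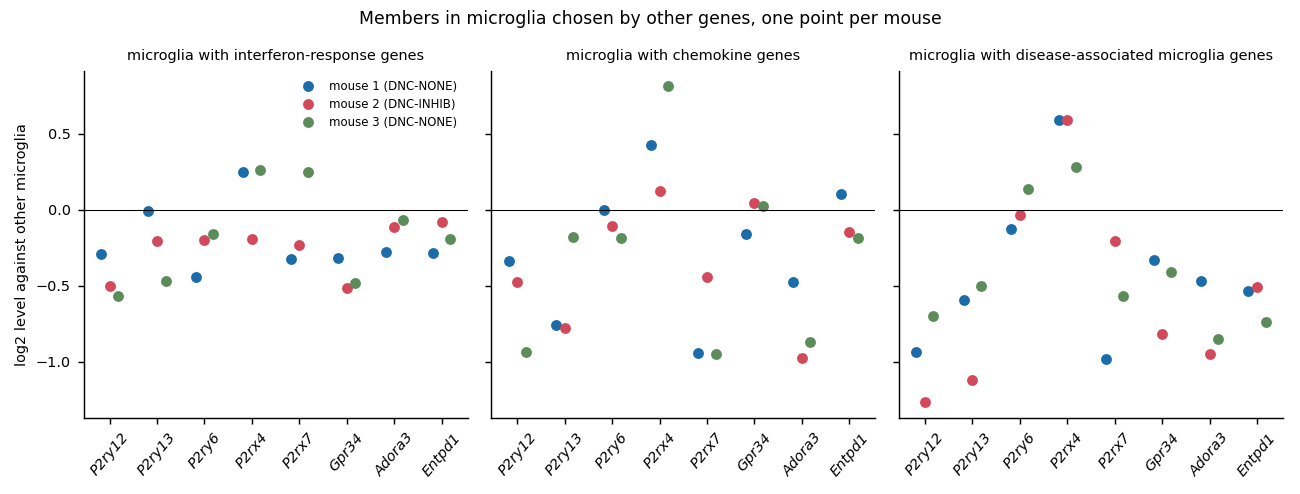
Log2 level of 8 members in microglia that hold the genes named above each panel against the other microglia of the same mouse (vertical axis), 1 point per mouse. In the cells with disease-associated microglia genes P2ry12 lies between −1.27 and −0.70 and P2rx4 between 0.28 and 0.59.

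Of 33 other purinergic genes (further P2 and adenosine receptors, nucleotide-degrading enzymes, transporters and release channels), 21 had more than 3 UMIs in microglia and 14 in neutrophils. In neutrophils 9 could be tested, and 6 were called lower and 3 higher than in microglia, beside 33.2% and 30.1% of all genes. Slc17a9, the transporter that loads ATP into vesicles, was at 30.7 ± 4.86 CPM (SD, n = 3 mice) in neutrophils and 13.6 ± 2.12 CPM in microglia (log2 fold change 2.59, standard error 0.31, adjusted p = 5.93e-13 by edgeR). Adk, which turns adenosine into AMP, was at 19.7 ± 5.57 CPM against 9.21 ± 0.447 CPM (2.49, standard error 0.38, adjusted p = 3.83e-09). For both genes the fold change is larger than the CPM give, since the fit scales neutrophils differently from CPM. Entpd7 was the last called higher (0.81, adjusted p = 0.0136), a direction that flips with library size alone, to −0.66. Kcnk13, the potassium channel that works with P2ry12 in microglia, was at 87.2 ± 4.23 CPM in microglia and 2.62 ± 0.625 CPM in neutrophils (−3.60, standard error 0.45, adjusted p = 2.94e-12), and Slc29a3, Slc29a1, Pnp, P2ry10b and Entpd6 were also called lower. In monocytes 4 of 9 were called lower, Kcnk13, Slc29a3, Slc29a1 and Slc17a9, beside 26.9% of all genes. In border macrophages 1 of 9 was, beside 6.8%, and this was P2ry10b, of which they held no UMI. None of 15 was called between kits, where 3.05% of all genes were, and none of 16 with inhibitors, where 0.895% were. Adora2b, the receptor that answers to high adenosine, had 13 UMIs in monocytes and none in any other type.

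For each of the 8 members past the low-count filter, the genes most like it were sought by the Pearson correlation of log2 CPM over 12 sums, 3 mice in 4 types, among genes that are neither members nor markers. The correlations of the 3 nearest genes ran from 0.952 to 0.994 and mostly trace which type is high. P2ry12 was nearest to Cd164, Slc16a6 and Ddx6, P2ry13 to Plxdc2, St3gal6 and Cxxc5, and Gpr34 to Basp1, Tjp1 and Mgat4a. P2ry6 was nearest to Rcbtb2, Lacc1 and Cmklr1, P2rx4 to Ctsh, Adgre1 and Sdf4, and P2rx7 to Golgb1, Aftph and Fance. Adora3 was nearest to Csnk1e, Mylip and Dennd4a, and Entpd1 to Tjp1 and Cxxc5.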

How the data were processed

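The authors sorted CD45+ CD11b+ cells, prepared V3.0 and V3.1 libraries of each mouse and sequenced them on a single flow cell. Per the labels, bcl2fastq, Cell Ranger 5.0.0 and the mouse build mm10 (GRCm38) were used. The authors deposited UMI counts per gene and barcode, without normalization, for the barcodes that Cell Ranger called as cells. Totals were 6275898 to 18872816 UMIs per library, so that a count of 0 in a small type allows a wide range of levels. No doublet caller was run here, and the upper limits on genes and UMIs are the only guard against doublets.

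A barcode was kept where it held between 1000 and 4000 genes, no more than 12000 UMIs in all and up to 15% of them mitochondrial. A cell was given the type of which it held at least 3 distinct markers and at least 3 times the UMIs of every other list; 4 markers and 10 times were alternatives. The marker lists were Tmem119, Siglech, Olfml3, Sparc and Slc2a5 for microglia, and genes of the same kind for the other types. UMIs were summed per mouse and type, since cells are not replicates, and types with at least 50 cells were compared in 1 fit with edgeR 4.0.16 (quasi-likelihood, TMM, filterByExpr, the mouse as a block, two-sided, Benjamini-Hochberg over all genes tested). Kits were compared over 6 microglial sums with no block, so that each mouse enters with both kits, and inhibitors over 3 sums, 1 per mouse. A gene was called at an adjusted p under 0.05 and a log2 fold change beyond 0.58. The standard error is the fold change divided by the root of the F statistic. Each fit was tested on simulated data. DESeq2 1.42.0 was an alternative. The same-numbered libraries come from the same mouse, and their deviations from the kit means correlated at 0.356, 0.501 and 0.199 over the 500 most variable genes. Thinning drew 2000 UMIs per cell without replacement. CPM is UMIs per 1000000 of the summed cells. Positions are from GENCODE vM21. All 10 members were described in every comparison, and the members and lists were chosen with earlier results of these data known. A gene among those most like Entpd1 is not reported here.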

Additional observations from a re-analysis of the deposited data

Results flagged for a closer look

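Adora2a stood at 51.8 CPM in the 35 lymphocytes, a type too small for the comparisons, on 3, 4 and 0 UMIs in mice 1, 2 and 3. This was flagged as a signal in cells outside the main comparisons that lies above the microglial level of 0.0146 CPM and above the level that a count of 0 allows. A UMI was seen in 20.0% of these cells (8.44% to 36.9%), and none in 306 neutrophils. No member had a library far from the others among the 4 DNC-NONE libraries, of the 8 members tested.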

How the results depend on the processing

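The number of members called stayed within 1.5 times of 6, 8 and 8 in border macrophages, monocytes and neutrophils, and at 0 for kits and inhibitors, under all 59 combinations of comparison and alternative, and 455 of 472 values of single members kept their direction and their side of the threshold. P2rx4 and P2rx7 in border macrophages changed side in 6, given above. The other 11 changed sign, all of them values near 0 that were not called in either setting. P2ry6 in border macrophages went from 0.27 to −0.13 at 10 times the marker UMIs, −0.0244 with library size alone and −0.00807 without the low-count filter. Between kits, leaving out each mouse gave −0.102 to 0.0406 for P2ry12, above 0 without mouse 2, and −0.0576 to 0.104 for Gpr34, below 0 without mouse 1. With inhibitors, P2ry12 went from −0.0211 to 0.0104 and Gpr34 from −0.0158 to 0.00810 with at least 500 genes, P2ry12 to 0.0983 and Gpr34 to 0.00836 with V3.0 libraries only, and P2rx4 from 0.0659 to −0.0596 and Adora3 from 0.0831 to −0.0443 with V3.1 libraries only. Leaving out each mouse gave 5 members called lower in border macrophages, 8 in monocytes and 8 in neutrophils each time, and 0 called for the kits. Called higher in border macrophages were 1, 0 and 2 members without mouse 1, 2 and 3. Without mouse 3, 9 members were tested, and 1 was called higher in neutrophils. That member had not passed the low-count filter in the main fit. With no replicate block the type comparisons gave 6, 8 and 8 members, and with the replicate block the kits gave 0. For the inhibitors, leaving out mouse 1 or 3 leaves a mouse against a mouse with no test, with P2ry13 at −0.27 and −0.46. The adjusted p of P2ry13 there was above 0.05 under all 9 alternatives, 0.0696 to 0.975. Shares of microglia with a UMI were 99.8%, 77.4%, 72.2%, 31.5%, 33.7%, 99.6%, 45.7% and 81.5% unthinned and 93.7%, 38.4%, 32.9%, 10.8%, 11.0%, 90.0%, 17.0% and 41.4% at 1000 UMIs, for P2ry12, P2ry13, P2ry6, P2rx4, P2rx7, Gpr34, Adora3 and Entpd1.

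Counts over all genes moved more. The kit comparison called 367 genes, 166 without mouse 1 and 137 without mouse 2, and the border macrophage comparison 1192 genes, 738 at 10 times the marker UMIs and 787 without mouse 2. With DESeq2, 836 of 1142 called genes were higher in border macrophages, against 669 of 1192. The inhibitor comparison called 118 genes (54 higher), and 70 with 4 markers (40 higher), 67 with library size alone (37 higher), 15 with DESeq2 (9 higher), 67 with V3.1 libraries only, and 0 with V3.0 libraries only by edgeR, where 807 passed an unadjusted p under 0.05. The causes were not tested. The 53 border macrophages, and 0 to 2 UMIs of a member in some mice, set the precision there.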

Other observations

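The 35 lymphocytes held 11 UMIs of Entpd1, in 28.6% of cells (14.6% to 46.3%), at 14.7% of the microglial level (7.34% to 26.3%), while the C1q genes stood at 1.21% (0.871% to 1.65%) there. P2ry10, a receptor of the P2Y family known from lymphocytes, had 20 UMIs in them and none in microglia, border macrophages, monocytes or neutrophils.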
